A study of Homo sapiens with 6 samples.

Results

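Aldo-keto reductases of the AKR1C and AKR1B groups were examined in 6 MDA-MB-231 xenograft samples, and the values of AKR1C2 stood furthest apart between epinephrine-treated (Epi) and PBS-treated mice. The genes considered were AKR1C1, AKR1C2, AKR1C3, AKR1C4, AKR1B1, AKR1B10 and AKR1A1. A gene was measured if the array annotation gave it a probeset (a set of short probes) of its own, and its brightest such probeset by mean over all arrays was used. This held for 5 of the 7 genes, out of 18132 genes on the array, and AKR1B1 and AKR1A1 were not analysed here. The family was chosen by Epi minus PBS differences on these same arrays, that of AKR1C2 among them. Its differences between Epi and PBS are therefore given as a description, with no test.

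MDA-MB-231 is a human cell line of triple-negative breast cancer. The cells were injected under the skin of both flanks of NOD/SCID mice, which lack working T and B cells, at 4 to 6 weeks of age. The Epi group received epinephrine under the skin at 2 mg per kg per day, and treatment preceded the tumor cells by 7 days. The PBS group received the same volume of PBS. Per the labels, primary cells were taken from the tumors and total RNA was extracted, with 3 samples labelled as biological replicates in each group. The study calls the array samples independent triplicates. Whether each came from a mouse of its own is not stated, so the p-values measure the spread between these samples. Without explanation, the code of Epi replicate 2 holds a 20 where those of the other Epi replicates hold a 10.

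Aldo-keto reductases are soluble enzymes that use NADPH to reduce aldehydes and ketones to alcohols. AKR1C1, AKR1C2, AKR1C3 and AKR1C4 are hydroxysteroid dehydrogenases encoded side by side on chromosome 10. AKR1C1 inactivates progesterone by reducing its side chain, AKR1C2 reduces the androgen dihydrotestosterone to a weak metabolite, AKR1C3 forms testosterone and prostaglandin F2α, and AKR1C4 acts mainly in the liver in bile acid synthesis. AKR1B10, encoded on chromosome 7, reduces retinal and lipid aldehydes. Several of these genes are known targets of NRF2, the transcription factor of the oxidative stress response.

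The authors deposited log2 values per probeset of the Affymetrix Human PrimeView array, and values of different probesets are not comparable as levels. Both replicate 1 arrays stood apart. Over all genes they correlated at 0.982 with each other and at 0.935 to 0.962 with the other arrays, which correlated at 0.972 to 0.989 among themselves. Each member is therefore also given for replicates 2 and 3 alone. The 5 markers of the cell line (VIM, CD44, KRT8, KRT18 and MSN) were all above the 30th percentile of gene means, which was 5.69 and is called the dim limit below. Among luminal markers CDH1, EPCAM and PGR were below it and ESR1, FOXA1 and GATA3 were not. Below it were 6 of 7 fibroblast markers, 4 of 7 leukocyte markers (PTPRC among them, with CD68, TYROBP and CSF1R above it), 4 of 6 hepatocyte markers (ALB among them, with APOA1 and TTR above it), 2 of 5 adipocyte markers and 1 of 6 endothelial markers. The median difference between Epi and PBS was -0.28 over the cell line's own markers, between -0.52 for MSN and 0.42 for KRT18. Over the lists of other cell types the medians lay between -0.136 for luminal breast and 0.0535 for red blood cells. The host cells are those of a mouse and the array is designed for human RNA, so these lists do not measure the share of host cells. How far mouse RNA contributed to the values was not tested. A change in the share of a cell type and a change of RNA within its cells cannot be told apart in such samples.

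AKR1C2, the dihydrotestosterone-reducing enzyme, read 8.93, 9.99 and 9.72 (log2) in Epi replicates 1 to 3, against 7.16, 7.06 and 6.93 in PBS replicates 1 to 3. No PBS array reached any of the Epi arrays, and the lowest Epi value exceeded the highest PBS value by 1.77. The group values were 9.55 ± 0.56 for Epi and 7.05 ± 0.11 for PBS (SD, n = 3 each), a difference of 2.50 with a standard error of 0.31, or 5.64-fold. The PBS arrays lay close together and most of the spread was among the Epi arrays, where replicate 1 was the lowest. Within replicate numbers the differences were 1.77, 2.93 and 2.79 for replicates 1, 2 and 3, and replicates 2 and 3 alone gave 2.86. Only 5 of the 18132 genes had a larger absolute difference.

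AKR1C1, the progesterone-reducing enzyme, read 7.37, 8.79 and 8.19 in Epi replicates 1 to 3, against 7.42, 6.66 and 6.42 in PBS replicates 1 to 3. The groups overlapped through the replicate 1 arrays, where Epi minus PBS was -0.045. In replicates 2 and 3 the Epi array was higher, by 2.13 and 1.77. The group values were 8.12 ± 0.71 for Epi and 6.83 ± 0.52 for PBS (SD, n = 3 each), a difference of 1.28 with a standard error of 0.41. Replicates 2 and 3 alone gave 1.95, which is over 1.5 times the value of all 6 arrays.

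AKR1C3, the enzyme that forms testosterone and prostaglandin F2α, read 8.97, 10.06 and 10.21 in Epi replicates 1 to 3, against 8.43, 9.34 and 9.19 in PBS replicates 1 to 3. Epi was higher in each of the 3 replicate numbers, by 0.54, 0.72 and 1.01, but the groups overlapped because Epi replicate 1 lay below both PBS replicates 2 and 3. The replicate 1 arrays were the lowest of their groups, in contrast to AKR1C1, where PBS replicate 1 was the highest PBS array. The group values were 9.75 ± 0.68 for Epi and 8.99 ± 0.49 for PBS (SD, n = 3 each), a difference of 0.76 with a standard error of 0.39. The difference was 1.15 without Epi replicate 1 and 0.48 without PBS replicate 1, each over 1.5 times away from the value of all 6 arrays. Replicates 2 and 3 alone gave 0.87.

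AKR1C4, the liver enzyme of the group, was under the dim limit. It read 5.44, 5.43 and 5.24 in Epi replicates 1 to 3, against 5.13, 5.36 and 5.20 in PBS replicates 1 to 3. The difference of 0.14 had a standard error of 0.22, the groups overlapped, and replicates 2 and 3 alone gave 0.053. AKR1B10, the retinal reductase, had a mean just under the dim limit. It read 5.26, 6.01 and 5.93 in Epi replicates 1 to 3, against 4.94, 5.85 and 5.85 in PBS replicates 1 to 3. The replicate 1 arrays lay below all others, and the difference was 0.19 with a standard error of 0.34. Replicates 2 and 3 alone gave 0.12. Without PBS replicate 1 it was -0.11, and without Epi replicate 1 it was 0.43.

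**Figure D1:**
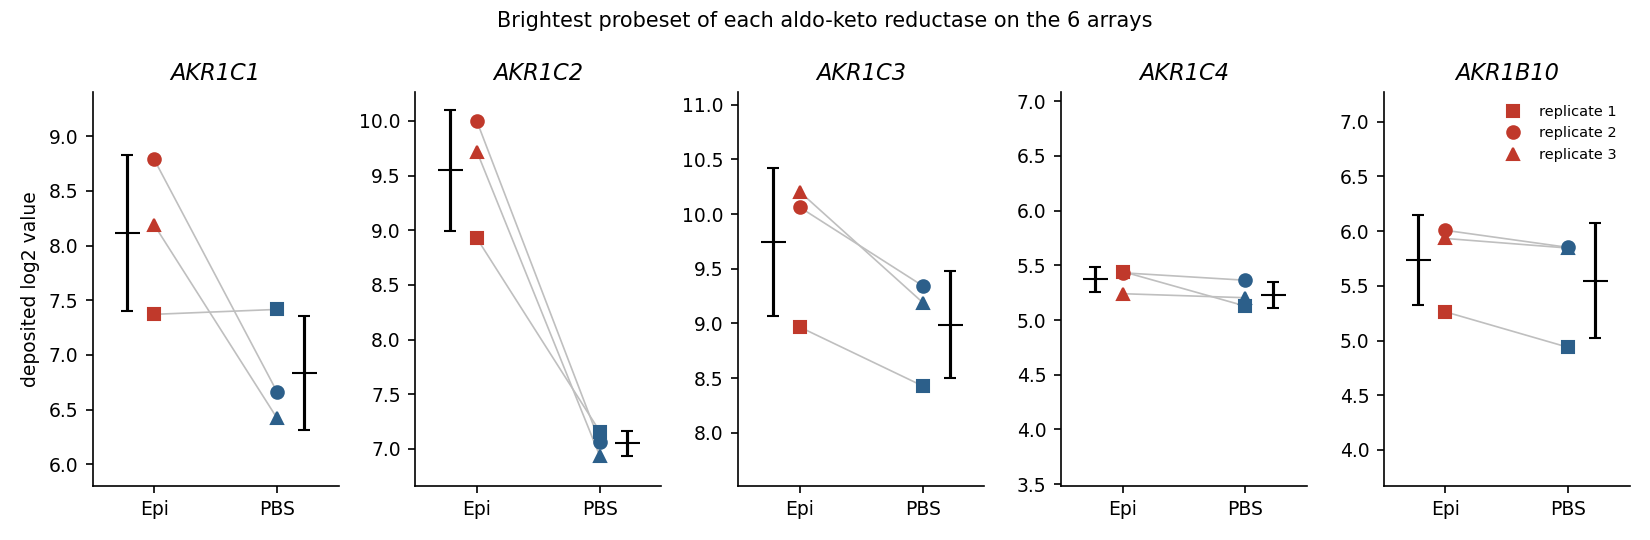
Deposited log2 values of the brightest probeset of each gene (y axis) in Epi and PBS samples (x axis). Each point is 1 array, its shape gives the replicate number, grey lines join equal numbers, and black bars beside the points show the mean ± SD of 3 arrays. All panels span the same number of log2 units but differ in position, since levels of different probesets are not comparable. The Epi arrays of AKR1C2 lie between 8.93 and 9.99, above all PBS arrays.

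The mean was higher in Epi than in PBS for all 5 measured genes, as it was for 45.7% of all 18132 genes. The median difference was 0.757 over the 5 genes and -0.0163 over all genes. The 3 Epi values all lay above the 3 PBS values for 1 of the 5 genes, AKR1C2, against 0.982% of all genes. With fewer arrays the share of all genes whose Epi values all lay above their PBS values was larger as well. The count was 4 (AKR1C1, AKR1C2, AKR1C3 and AKR1B10) without Epi replicate 1, against 9.13% of all genes, and the same 4 in replicates 2 and 3 alone, against 14.4%. It was 2 (AKR1C2 and AKR1C4) without Epi replicate 3, against 3.78% of all genes, or without PBS replicate 2, against 2.32%. It was 2 (AKR1C1 and AKR1C2) without PBS replicate 1, against 4.7% of all genes, and 2 (AKR1C2 and AKR1C3) after quantile normalization, against 1.71%. AKR1C2 was in every one of these counts. In limma fitted across all genes, with Benjamini-Hochberg adjustment at 0.05, none of the 5 genes and 0% of all genes passed without a block. At an unadjusted p under 0.05, 241 of the 18132 genes passed there, and 252 in the methods' t-test. Both counts are lower than this threshold would let pass on average if no gene differed. With the replicate number as a block 1 of the 5 genes, AKR1C2, passed as higher, beside 0.353% of all genes. The counts over the 5 genes come from the contrast through which the family was chosen, so they are descriptions only.

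The other probesets of the same genes did not all show these differences. The second probeset of AKR1C1 read 7.02, 8.35 and 7.89 in Epi replicates 1 to 3, against 7.14, 6.25 and 5.46 in PBS replicates 1 to 3, with a difference of 1.47 and the same overlap through replicate 1. AKR1C2 had a pair of further probesets. One read 5.98 to 6.18 in Epi and 5.39 to 6.03 in PBS, with a difference of 0.36. The other read 3.24 to 3.48 in Epi and 3.16 to 3.46 in PBS, with a difference of 0.025, and was under the dim limit. The mean of all 3 probesets of AKR1C2 gave a difference of 0.96, so the size of its difference rests on the brightest probeset. The mean of both AKR1C3 probesets likewise gave 0.35, against 0.76 for the brightest. The second probeset of AKR1C3 was dim, at 3.22 to 3.97 in Epi and 3.73 to 3.83 in PBS, with a difference of -0.050. For AKR1B10 the second probeset read 5.60, 5.83 and 5.63 in Epi replicates 1 to 3, against 5.34, 5.15 and 5.41 in PBS replicates 1 to 3, which did not overlap and differed by 0.39. It was under the dim limit as well.

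A further 5 probesets are annotated to a member together with another gene and belong to neither. Of these, 3 are shared by AKR1C1 and AKR1C2 and 2 by AKR1B10 and its neighbor AKR1B15. The brightest of those shared by AKR1C1 and AKR1C2 read 8.07, 9.65 and 9.51 in Epi replicates 1 to 3, against 7.52, 7.14 and 6.32 in PBS replicates 1 to 3. The groups did not overlap there and differed by 2.08, a value between those of AKR1C1 and AKR1C2. The remaining pair shared by these genes were dim and differed by 0.092 and 0.20. The probesets shared by AKR1B10 and AKR1B15 differed by 0.087 and 0.34 and overlapped. Array identifiers that end in _x_at mark probesets in which some probes can also match other transcripts. The brightest probeset of AKR1C1, both further probesets of AKR1C2 and the second probeset of AKR1B10 are of this kind. How far RNA of an aldo-keto reductase gene contributed to the values of another such gene was not tested.

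**Figure D2:**
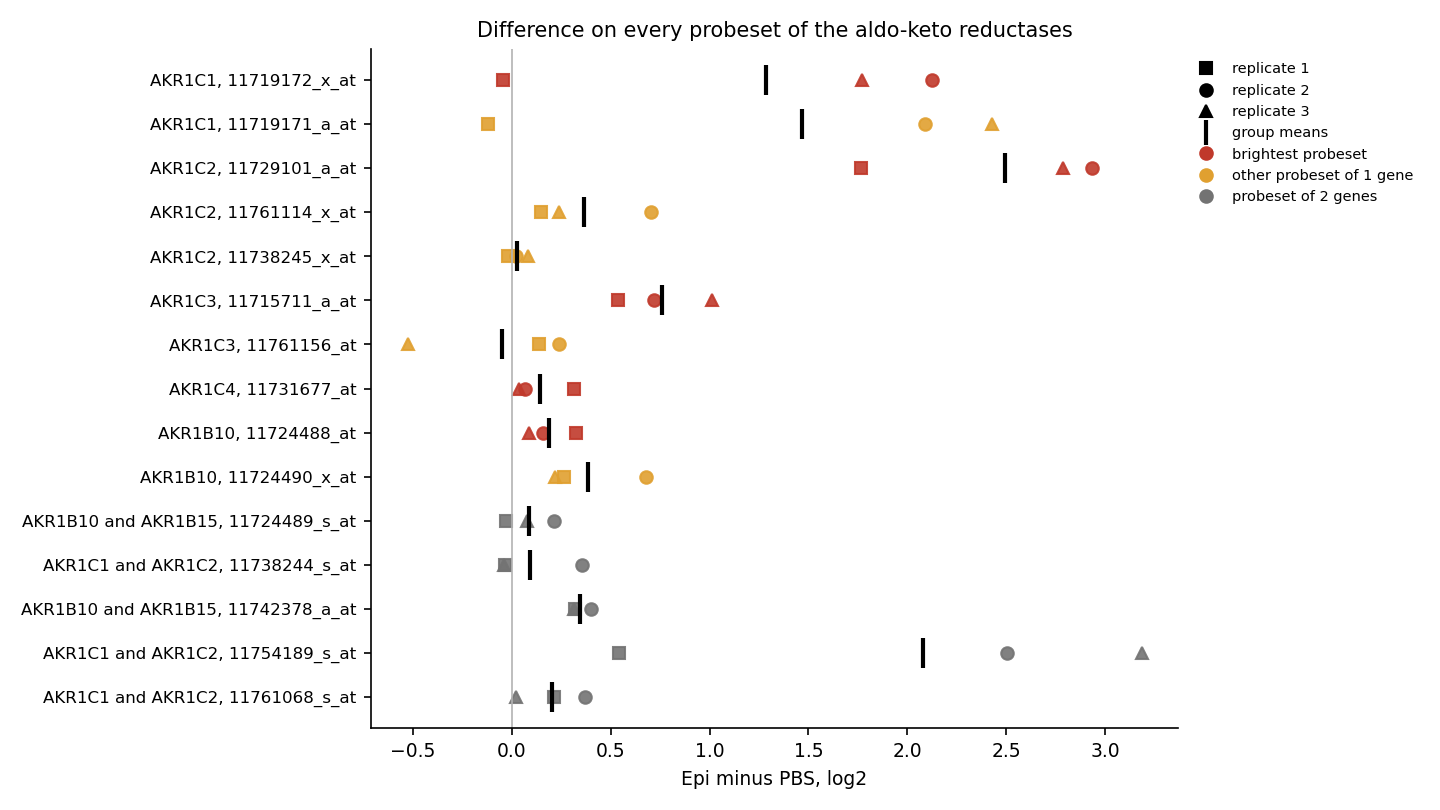
Epi minus PBS (x axis, log2) on the 15 probesets annotated to a measured aldo-keto reductase (y axis), with 1 point per replicate number and a black bar for the difference of the group means. Red points are the brightest probeset of a gene, yellow points other probesets of 1 gene, and grey points probesets of 2 genes. The largest group difference, 2.50, is that of the brightest AKR1C2 probeset, and the other AKR1C2 probesets stand at 0.36 and 0.025.

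To show how alike the promoters of the AKR1C genes are, those of the 4 measured genes of the chromosome 10 group are printed. They are RefSeq sequences of build GRCh38.p14, which matched 6 of the 7 genes, and run from 250 bases before to 50 bases after the start of transcription, in the direction of the gene. The array files name no genome build. Capitals mark a match to TGANNNNGC, the short core of the antioxidant response element that NRF2 binds, here read on the opposite strand.
AKR1C1 (chr10:4963165-4963464, + strand): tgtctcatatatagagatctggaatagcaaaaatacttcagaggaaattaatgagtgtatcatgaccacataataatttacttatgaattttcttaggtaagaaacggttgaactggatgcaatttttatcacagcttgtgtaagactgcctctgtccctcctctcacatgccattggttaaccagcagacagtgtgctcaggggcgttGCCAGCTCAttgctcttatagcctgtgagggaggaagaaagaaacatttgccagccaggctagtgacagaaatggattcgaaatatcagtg
AKR1C2 (chr10:5003808-5004107, - strand): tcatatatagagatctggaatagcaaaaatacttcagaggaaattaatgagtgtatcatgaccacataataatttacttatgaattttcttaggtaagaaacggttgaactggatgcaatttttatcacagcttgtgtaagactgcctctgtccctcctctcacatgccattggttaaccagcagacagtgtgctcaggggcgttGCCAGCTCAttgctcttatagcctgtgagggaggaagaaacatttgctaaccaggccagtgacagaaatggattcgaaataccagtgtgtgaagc
AKR1C3, the first of 2 start sites (chr10:5048531-5048830, + strand): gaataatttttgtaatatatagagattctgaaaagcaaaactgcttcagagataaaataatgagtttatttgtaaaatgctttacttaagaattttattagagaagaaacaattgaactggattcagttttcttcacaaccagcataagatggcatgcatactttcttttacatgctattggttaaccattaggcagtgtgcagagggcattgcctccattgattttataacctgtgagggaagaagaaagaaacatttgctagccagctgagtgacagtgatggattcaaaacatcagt
AKR1C4 (chr10:5196587-5196886, + strand): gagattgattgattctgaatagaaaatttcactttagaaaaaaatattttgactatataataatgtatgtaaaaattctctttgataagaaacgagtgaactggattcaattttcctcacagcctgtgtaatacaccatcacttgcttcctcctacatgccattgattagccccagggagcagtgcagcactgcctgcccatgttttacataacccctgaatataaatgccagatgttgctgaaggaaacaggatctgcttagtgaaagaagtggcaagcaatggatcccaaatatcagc

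The promoters of AKR1C1 and AKR1C2 were identical at 288 of 296 aligned positions (97.3%), with 4 mismatches and 4 gap positions. Transcripts and proteins were not compared. AKR1C1 and AKR1C3 were identical at 75.7% of aligned positions, AKR1C2 and AKR1C3 at 74.3%, AKR1C1 and AKR1C4 at 62.1% and AKR1C2 and AKR1C4 at 60.8%. The pair with the most similar promoters was thus AKR1C1 and AKR1C2. Their differences in replicates 1 to 3 were -0.045, 2.13 and 1.77 for AKR1C1 and 1.77, 2.93 and 2.79 for AKR1C2. A relation between promoter likeness and these differences was not tested. Both strands were searched for TGANNNNGC, its longer form TGACNNNGC (which it contains), the cAMP response element TGACGTCA and its left part TGACG, the AP-1 site TGANTCA and the E-box CACGTG. TGANNNNGC was found once in AKR1C1, at -41 to -33 relative to the start, and once in AKR1C2, at -45 to -37. It was in neither window of AKR1C3 and not in AKR1C4, and 41.8% of all 35116 promoter windows of this length hold it. The other motifs were not found in the windows of the 4 AKR1C genes, and are in 13.3% (TGACNNNGC), 1.85% (TGACGTCA), 24.6% (TGACG), 7.71% (TGANTCA) and 7.26% (CACGTG) of all windows. A match of letters is a description and says nothing of binding.

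On chromosome 10 the measured aldo-keto reductase genes follow each other in the order AKR1E2, AKR1C6P, AKR1C1, AKR1C2, AKR1C3, AKR1C8 and AKR1C4. Differences between Epi and PBS along this order were 0.030 for AKR1E2, -0.12 for the pseudogene AKR1C6P, 1.28 for AKR1C1, 2.50 for AKR1C2, 0.76 for AKR1C3, -0.19 for AKR1C8 and 0.14 for AKR1C4. AKR1C6P, AKR1C8 and AKR1C4 were under the dim limit. The largest differences along this order were thus those of the 3 adjacent genes AKR1C1 to AKR1C3, although the groups overlapped for AKR1C1 and AKR1C3. A list of 8 other aldo-keto reductases was also counted, which holds AKR1E2 but not AKR1C6P or AKR1C8. Of these 8, limma called none higher or lower in the fit with the block or in the one without it. Their median difference was -0.0329. Within this list the highest were AKR1B15 (0.29) and AKR1E2. Its lowest were AKR7A2, which reduces aflatoxin aldehydes and succinic semialdehyde (-0.21), and the potassium channel subunit KCNAB2 (-0.15).

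The patterns of AKR1C1, AKR1C2 and AKR1C3 over the 6 arrays were not the same. Across the arrays, Pearson's r was 0.898 between AKR1C1 and AKR1C2, 0.728 between AKR1C2 and AKR1C3 and 0.602 between AKR1C1 and AKR1C3. AKR1B10 followed AKR1C3 (0.871) more closely than AKR1C1 (0.198). These are 6 arrays that share the split between treatments and the replicate 1 arrays, so the coefficients are descriptions. Among 3382 genes above the dim limit with an SD of at least 0.5 over the arrays, those most like AKR1C2 were ADM, which encodes the vasodilator adrenomedullin (0.980), the SLUG gene SNAI2 (0.966), the interleukin 7 receptor gene IL7R (0.962), TNFRSF21, a death receptor (0.961), and the protease inhibitor gene SLPI (0.961). Those most like AKR1C1 were MTERF2 (0.953), a mitochondrial transcription termination factor, SNAI2 (0.943), TAF11 (0.937), a subunit of the basal transcription factor TFIID, the polarity gene PARD6B (0.931) and the histone gene H2AC6 (0.930). Those most like AKR1C3 were GNG11 (0.992), a G protein subunit, SMAD6 (0.990), an inhibitor of BMP signaling, IGFBP7 (0.988), an insulin-like growth factor binding protein, WWC3 (0.987) and the interferon-induced gene HERC5 (0.987). A coefficient of at least 0.9 was reached by 9 of these genes with AKR1C1, 15 with AKR1C2 and 116 with AKR1C3.

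**Figure D3:**
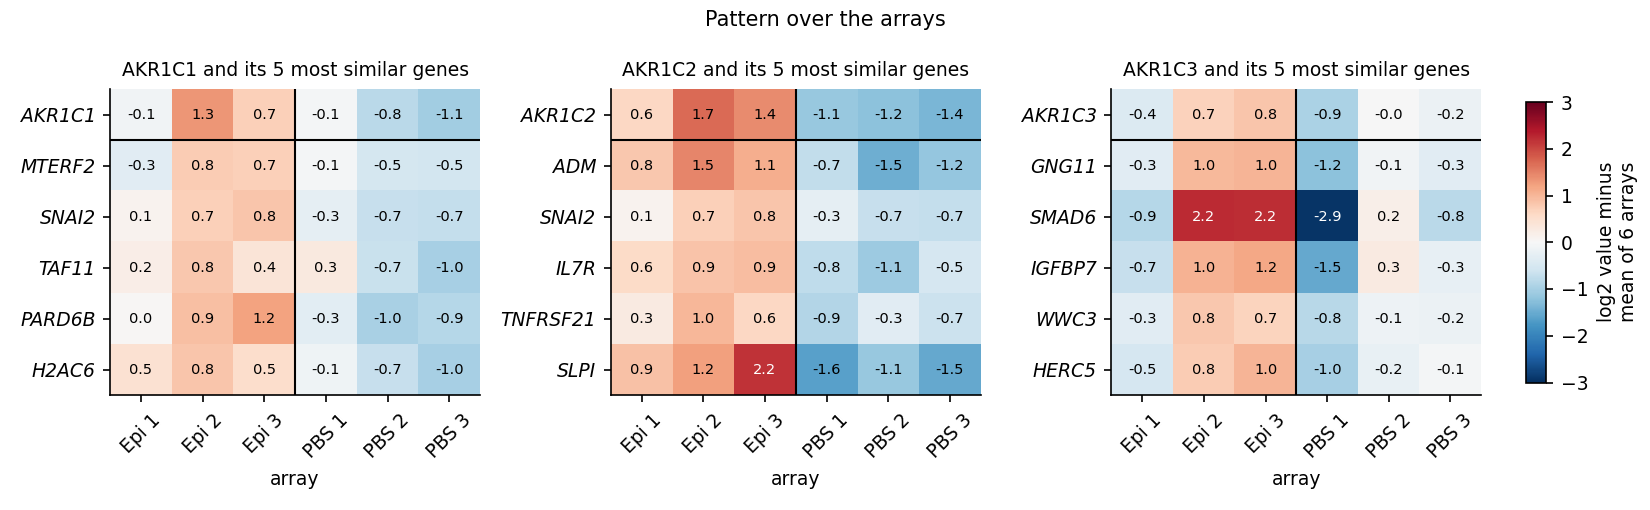
Log2 values minus the mean of the 6 arrays (color and printed number) for AKR1C1, AKR1C2 and AKR1C3 and the 5 genes with the highest Pearson correlation to each (rows), by array (columns, Epi left of the line and PBS right of it). In the AKR1C2 panel every Epi array is above 0 and every PBS array below it, whereas for AKR1C3 and its similar genes the replicate 1 array is the lowest of each group.

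Genes that share the regulator or the reactions of the AKR1C enzymes were counted as lists. Of 31 measured NRF2 targets, none rose and none fell in limma after adjustment, with or without the block. With the block 12 were higher and 1 lower at an unadjusted p under 0.05, beside 385 higher and 561 lower among all 18132 genes. Their median difference was 0.251, and 24 of 31 (77.4%) had a higher mean in Epi, against 45.7% of all genes. The 3 Epi values all lay above the 3 PBS values for 4 of the 31 genes (12.9%, against 0.982% of all genes). These were NQO1, a quinone reductase (0.75), ABCC2, an export pump (0.73), the glutathione transferase gene MGST1 (0.69) and UGDH, which forms UDP-glucuronic acid (0.66), named after their values were seen. The highest differences were those of SLC7A11, the cystine transporter gene, and HMOX1, which encodes heme oxygenase.

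SLC7A11 read 10.78, 8.86 and 8.62 in Epi replicates 1 to 3, against 10.19, 7.11 and 7.76 in PBS replicates 1 to 3. It was higher in Epi in 3 of 3 replicate numbers, with a difference of 1.06 and an adjusted p of 0.0505 from limma with the block. In contrast to AKR1C2, both replicate 1 arrays were its highest. HMOX1 read 8.80, 7.38 and 8.78 in Epi replicates 1 to 3, against 7.46, 7.92 and 7.21 in PBS replicates 1 to 3, and Epi was below PBS in replicate 2. The lowest of the list were SLC6A6, a taurine transporter gene (-0.45), and GSTM3 (-0.13). The list was chosen with earlier results of these arrays known and is not independent support.

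Of 12 measured regulators of NRF2, limma called none higher or lower in either fit, and the median difference was -0.00964. NFE2L2, which encodes NRF2 itself, read 10.16, 9.92 and 10.29 in Epi replicates 1 to 3, against 10.38, 8.84 and 9.53 in PBS replicates 1 to 3, with a difference of 0.54. The kinase gene GSK3B stood at 0.48, KEAP1, which encodes the adaptor that targets NRF2 for degradation, at 0.17, and the lowest were NFE2L3 (-0.78) and MAFF (-0.45). For KEAP1, named after its values were seen, the 3 Epi arrays, the lowest at 9.13, all lay above the 3 PBS arrays, the highest at 9.07.

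None of 26 measured other steroid-metabolizing enzymes passed in limma with or without the block, and 15 of the 26 were under the dim limit. A higher mean in Epi was found for 18 of them (69.2%, against 45.7% of all genes), and in 3.85% the 3 Epi values all lay above the 3 PBS values (against 0.982%). Their median difference was 0.0956 on all arrays and -0.0609 in replicates 2 and 3, with medians of 0.304 in replicate 1, -0.00288 in replicate 2 and -0.0708 in replicate 3. The steroid sulfatase gene STS (0.63) and HSD17B4 (0.33) were the highest, and HSD17B7 (-0.35) and SRD5A1, which forms dihydrotestosterone (-0.33), the lowest. Of 5 measured steroid receptors none passed. NR3C1, the glucocorticoid receptor gene, read 9.43, 9.96 and 10.65 in Epi replicates 1 to 3, against 9.29, 9.03 and 9.37 in PBS replicates 1 to 3, so the groups did not overlap (difference of 0.78). ESR1 stood at 0.0044, NR3C2 at -0.042 and ESR2 at -0.11.

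None of the 21 measured genes of prostaglandin synthesis and reception passed with or without the block, and their median difference was -0.0682. PTGR1, a prostaglandin reductase that is also in the NRF2 list (0.57), and PTGES, a prostaglandin E synthase (0.50), were the highest. PTGS2, which encodes cyclooxygenase 2, read 3.23, 4.65 and 4.67 in Epi replicates 1 to 3, against 4.85, 4.68 and 5.96 in PBS replicates 1 to 3. The groups did not overlap, and it was the lowest of the list (-0.98) and dim on average, with PTGER3 next (-0.26). None of 18 retinoid genes passed, with DHRS3 (0.27) and ALDH1A2 (0.14) the highest and the retinoic acid binding protein gene CRABP2 (-0.44) and ALDH1A3 (-0.37) the lowest. None of 21 other carbonyl and polyol enzymes passed, with the aldehyde dehydrogenase genes ALDH3A1 (0.65) and ALDH3A2 (0.63) the highest and DHRS7 (-0.32) and KHK, the fructose kinase gene (-0.27), the lowest.

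**Figure D4:**
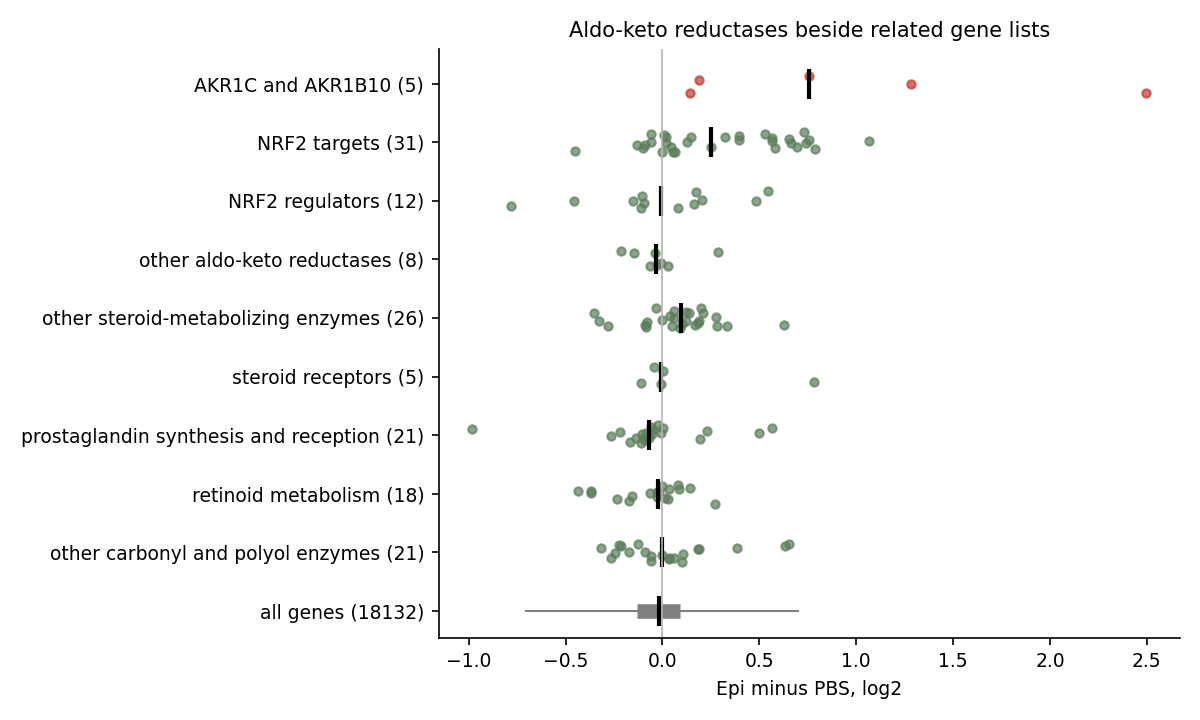
Epi minus PBS (x axis, log2) for each measured gene of the aldo-keto reductases and of 8 related lists (y axis, number of genes in brackets), with black bars at the medians. For all 18132 genes the thick grey bar spans the 25th to 75th percentile and the thin line the 1st to 99th percentile. The median is 0.757 for the 5 aldo-keto reductases, 0.251 for NRF2 targets and -0.0163 for all genes.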

How the data were processed

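RNA of 6 samples was measured on Affymetrix Human PrimeView arrays. The authors deposited log2 values for 49395 probesets. RMA and Affymetrix Expression Console stand in the submitters' processing notes, with no versions, and no source used here says which arrays were normalized together. The median over all probesets was 6.05 in Epi replicate 1 and 5.98 in PBS replicate 1, against 6.37 to 6.42 in the other arrays. Replicate 1 values have 6 significant digits or fewer, and the remaining arrays up to 9. Control probesets (102) were left out, and gene names came from GEO's annotation of the platform, where 44988 have 1 gene and 1832 several.

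Epi and PBS were compared in R 4.3.3 with limma 3.58.1 (lmFit, eBayes) over 18132 genes, 1 probeset each, with Benjamini-Hochberg adjustment at 0.05. Samples of the same replicate number deviated together from their group means (correlations of 0.630, 0.627 and 0.453), although Epi replicate 2 and PBS replicate 3 also did (0.523). The labels do not say what a number stands for. The replicate block was therefore an alternative to the fit without it. The methods name a t-test, analysis of variance and a chi-square test for the whole study, and no test for the arrays. For the arrays the paper does report altered genes, by a cutoff on fold change and Q under 0.05. How that Q was computed is not stated, so those genes are not set beside the limma calls here. The fits were also run on data simulated from the model with the replicate block. Such data take the block as given, so they cannot show whether it holds for these arrays. Promoters were aligned with Biopython 1.88.

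Members and lists were chosen with earlier results of these data known. Named genes were the members, the genes of each list that passed, its 2 highest and 2 lowest differences, and the 5 genes most correlated with AKR1C1, AKR1C2 and AKR1C3. KEAP1, NQO1, ABCC2, MGST1 and UGDH were named outside this rule, after their values were seen. Alternatives were the replicate block, quantile normalization, array weights, median centring, the mean of probesets, a t-test, a variance trend, replicates 2 and 3 alone, a filter on dim genes, replicate 1 arrays as a block and leaving out each array. Combinations of the block with pairs left out, normalization and probeset means were added after seeing the data. The number of arrays limits the precision.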

Additional observations from a re-analysis of the deposited data

Results flagged for a closer look

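A pair of probesets that do not stand for a member in the comparison had all 3 Epi values above all 3 PBS values. The brightest probeset shared by AKR1C1 and AKR1C2 differed by 2.08, with Epi above PBS by 0.54, 2.50 and 3.19 in replicates 1 to 3. The second probeset of AKR1B10, which was dim and ends in _x_at, differed by 0.39. There Epi was above PBS by 0.26, 0.68 and 0.22 in replicates 1 to 3. Neither difference was tested. Groups of 3 arrays are too small for a check of single deviating arrays.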

How the results depend on the processing

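The differences of AKR1C3, AKR1C4 and AKR1B10 moved by less than 1 SD of their replicates in every alternative that kept them, although AKR1C3 was 0.35 with the mean of probesets, and a filter on dim genes removed AKR1C4 and AKR1B10. AKR1C1 was 1.95 in replicates 2 and 3, with or without the block, and AKR1C2 was 0.96 with the mean of probesets, with or without the block. Leaving out 1 array gave 0.95 to 1.66 for AKR1C1 and 2.27 to 2.81 for AKR1C2. All Epi values then lay above all PBS values for 1 to 4 members, and for 1.48% to 9.13% of all genes. Leaving out a replicate pair from the blocked fit gave 0.86 to 1.95 for AKR1C1 and 2.28 to 2.86 for AKR1C2. All Epi values then lay above all PBS values for 2 to 4 members, and for 3.02% to 14.4% of all genes. Members with all Epi values above all PBS values numbered 4 in replicates 2 and 3 (14.4% of all genes). After quantile normalization they numbered 2 (1.71% of all genes), also with the block. The shares count only genes in this direction.

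Without the block 0 genes passed, also with any 1 array left out. With the replicate block 122 passed, and 66 to 162 with a pair left out (162 without replicate 1, 66 without replicate 2 and 129 without replicate 3). It was 40 with a block for the replicate 1 arrays, 16 in replicates 2 and 3 alone, and, with the block, 9 after quantile normalization, 20 after median centring and 81 with the mean of probesets. The replicate block on all arrays changed no call of a list. With a pair left out from the blocked fit, 0 to 1 genes passed among NRF2 targets (HMOX1 without replicate 2 and SLC7A11 without replicate 3), steroid receptors (NR3C1 without replicate 1) and prostaglandin genes (PTGS2 without replicate 2). With the mean of probesets and the block 2 NRF2 targets passed, ABCC2 and NQO1. Array weights did not converge, with a weight of 67.3 for PBS replicate 3 and 0.124 for Epi replicate 1, and called 2352 genes. With them AKR1C1 stood at 2.23 and AKR1C2 at 2.99, and calls numbered 13 in NRF2 targets, 4 in its regulators, 2 in other aldo-keto reductases, 5 in steroid enzymes, 1 in steroid receptors, 5 in prostaglandin genes, 1 in retinoid genes and 5 in carbonyl enzymes. The cause of these changes was not tested.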
